A study of Mus musculus with 4 samples.

Results

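The caveolins Cav1 and Cav2, the cavins Cavin1, Cavin2 and Cavin3, and the diaphragm protein gene Plvap were followed in Py-4-1 cells, a line grown from a hemangioendothelioma, a tumour of endothelial cells, of the mouse. Members were taken by name: every probe set that the platform annotation gives to 1 of these 6 genes alone, which came to 10 probe sets for 6 of the 12393 genes on the array. Older names of the cavins (Ptrf, Sdpr and Prkcdbp) did not have to be used, because the annotation already carries the current ones.

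Affymetrix arrays, 4 in all and of 1 colour, gave the expression values. Of these, 2 came from clones transfected with pcDNA (the control clones) and 2 from clones labelled as stably expressing Prox1 from pcDNA/Prox1, the homeobox factor that sets lymphatic endothelial identity. Each clone was hybridised to 1 array, so that differences among clones, cultures and arrays within a group cannot be told apart. Strain, passage and promoter are not stated, and the study is titled for Prox1 and tumour invasion in kaposiform hemangioendothelioma.

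Caveolae are small flask-shaped pits of the plasma membrane that are abundant in endothelium, fat and muscle. Caveolins are hairpin membrane proteins that assemble with cholesterol into the pit, and cavins are soluble proteins that coat it from the cytoplasm. In endothelium caveolae take part in transcytosis, mechanical buffering and the control of nitric oxide synthase, and Plvap forms the diaphragms that span their necks and the fenestrae of capillaries.

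The arrays share a few facts that bear on these genes. The trimmed mean of every array was 500, so a change is relative to the other transcripts of the array. Prox1 itself (1421336_at) read 52.1 and 60.5 in the controls, against 62.4 and 44.3 under the Prox1 label, values in the order of clones 1 and 2, as in all pairs of values that follow. These overlap, and the groups are therefore called by their labels throughout. The control clones differed at least 2-fold from each other at 355 of 11656 tested probe sets, against 60 for the Prox1-labelled clones. Background was read from 27 probe sets for Bacillus transcripts, and the highest of them lay between 45.3 and 101 over the arrays. The Prox1 probe set exceeded this background on the array of control clone 1 alone and was too dim to be tested. Its values therefore cannot show whether Prox1 RNA differed between the groups. Of 12 endothelial markers 10 exceeded the highest Bacillus control on every array.

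For orientation, the bases before the annotated start are given for the 3 genes whose brightest probe sets stood highest above the controls. Cav2 and Cav1 lie next to each other on chromosome 6, with 0 annotated genes between them, and Cavin2 lies on chromosome 1. Windows of 250 bases were read from the RefSeq promoter table, which matched 4 of the 6 genes (build GRCm38.p6, plus strand, 5′ to 3′). They are chr6:17306085-17306334 for the more upstream of 2 listed Cav1 starts, chr6:17280935-17281184 for Cav2 and chr1:51288876-51289125 for Cavin2. Capitals mark each match on either strand to any of 6 motifs: the GC box as GGGCGG, the TATA box as TATAAA, the CCAAT box by its name, the Ets core as CCGGAA, the Sox core as ACAATG, and the AP-1 element as TGACTCA. No matches overlap.
Cav1: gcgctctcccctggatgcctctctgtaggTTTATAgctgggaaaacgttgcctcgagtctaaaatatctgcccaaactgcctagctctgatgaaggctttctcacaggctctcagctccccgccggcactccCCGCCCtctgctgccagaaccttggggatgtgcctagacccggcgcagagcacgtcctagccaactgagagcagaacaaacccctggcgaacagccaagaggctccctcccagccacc
Cav2: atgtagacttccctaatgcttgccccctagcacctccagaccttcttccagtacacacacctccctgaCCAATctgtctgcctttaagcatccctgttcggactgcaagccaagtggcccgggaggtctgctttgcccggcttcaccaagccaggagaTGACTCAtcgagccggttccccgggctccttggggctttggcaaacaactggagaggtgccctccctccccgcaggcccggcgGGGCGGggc
Cavin2: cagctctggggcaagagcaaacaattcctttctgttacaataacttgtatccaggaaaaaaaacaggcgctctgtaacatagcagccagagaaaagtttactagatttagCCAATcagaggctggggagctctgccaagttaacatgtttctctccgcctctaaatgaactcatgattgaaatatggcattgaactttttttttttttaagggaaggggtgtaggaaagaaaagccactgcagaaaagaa

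The windows differ in composition. G and C make up 59.6% of the Cav1 window, 62% of that of Cav2 and 40.4% of that of Cavin2, with 10, 10 and 2 CpG dinucleotides. Cav1 holds a GC box and a TATA box match, both on the minus strand, and Cav2 holds a GC box, a CCAAT box and the AP-1 letters. The Cavin2 window holds a CCAAT box alone, and so no motif of the 6 is shared by all 3 windows. Of 32851 windows of the same length in the table, 32.7% hold the GC box, 12.4% the TATA box, 33.8% the CCAAT box, 12% the Ets core, 10.7% the Sox core and 4.46% the AP-1 letters. The second Cav1 start (chr6:17307390-17307639) has 0 matches. These are matches of letters and do not show binding.

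For 5 of the 6 genes the brightest probe set read higher in both Prox1-labelled clones than in either control, and for Plvap the groups overlapped. None of these differences passed the test across all probe sets. Of the 10 probe sets 9 had a positive log2 change and 1 a negative one, with a median of 0.39, where 50.4% of all 22626 probe sets were positive with a median of 0.0025. For 6 of the 10, covering Cav1, Cav2, Cavin1, Cavin2 and Cavin3, both Prox1-labelled clones lay above both control clones, and for 0 they lay below. Over all probe sets 20.9% were separated in this upward direction. Changes were taken on the scale log2(intensity + 47), with the lower quartile of all values as the added constant, so those of dim probe sets come out too small.

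Limma called 12 of 11656 probe sets (0.103%) at an adjusted p under 0.05, and 0 of the 8 family probe sets that were bright enough to be tested were among them, with adjusted p from 0.0878 to 0.916. Unadjusted p under 0.05 in the upward direction was reached by 4 of the 8 (Cav1, 1417327_at of Cav2 and both probe sets of Cavin2), where 8.65% of all tested did so. Separation upward was seen in 6 of the 8, where 23.9% of all tested had it. One of the 8, 1416779_at of Cavin2, reached the filter through the Prox1-labelled arrays alone and so had to differ. Without it the counts were 3 of 7 and 5 of 7, and adjusted p ran from 0.165 to 0.916. The 2 that were not tested were the dimmer probe sets 1425955_at of Cav2 and 1453891_at of Cavin1. With 2 clones in each group the smallest exact permutation p is 0.333.

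**Figure D1:**
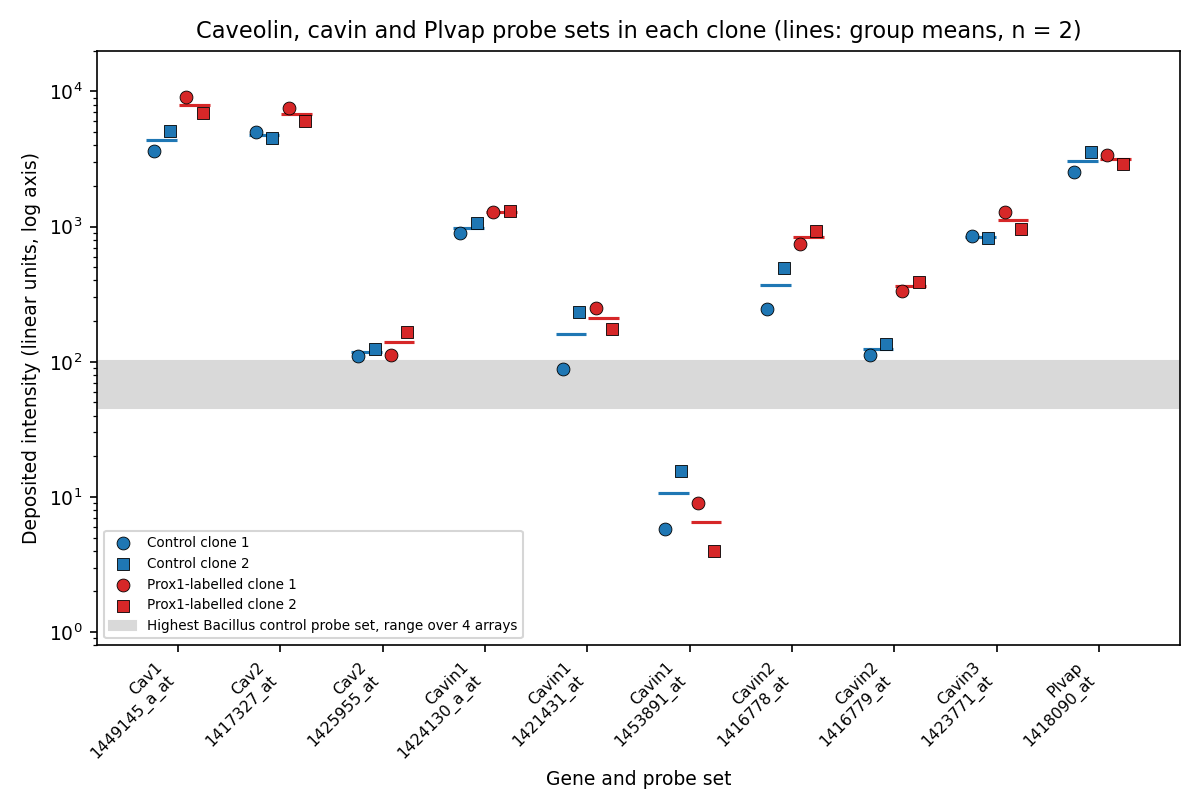
Deposited intensity (log axis) of the 10 probe sets in each of the 4 clones, with a line at each group mean (n = 2) and a grey band for the highest Bacillus control probe set over the arrays (45.3 to 101). Both Prox1-labelled clones lie above both control clones for Cav1, the bright probe sets of Cav2 and Cavin1, both probe sets of Cavin2, and Cavin3, and the groups overlap for Plvap.

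Cav1 encodes caveolin-1, the protein without which endothelial caveolae do not form. Its probe set (1449145_a_at) read 3618 and 5108 in the controls, against 9037 and 6937 under the Prox1 label. On each array it was brighter than at least 96.0% of all probe sets. The groups did not overlap: the lower Prox1-labelled clone stood 1.36-fold above the higher control clone. Means were 4363 ± 1054 (SD, n = 2) and 7987 ± 1485, a 1.83-fold ratio. The log2 change was 0.87 ± 0.22 (SE, with a 95% interval from 0.38 to 1.37, limma adjusted p = 0.165), and 211 of the tested probe sets (1.81%) had a higher one. Control clone 2 exceeded control clone 1 by 1.41-fold, so the distance between the groups depends on which control is taken. Without control clone 1 the log2 change was 0.63, and without control clone 2 it was 1.12 and passed (adjusted p = 0.00555), in a fit with 1 control array that called 1150 probe sets in all.

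Cav2 encodes caveolin-2, which assembles with caveolin-1 and needs it to reach the cell surface. The bright probe set (1417327_at) read 5043 and 4542 in the controls, against 7502 and 6087 under the Prox1 label. The groups were separated, with the lower Prox1-labelled clone 1.21-fold above the higher control. The means were 4792 ± 355 (SD, n = 2) and 6794 ± 1001, and the log2 change was 0.49 ± 0.18 (95% interval 0.088 to 0.90, limma adjusted p = 0.266). Here the order of the control clones was the reverse of that for Cav1, with clone 1 above clone 2. The other probe set (1425955_at) was dim, at 110 and 125 in the controls, against 113 and 167 under the Prox1 label. It lay below the median of every array, its groups overlapped, and its log2 change was 0.17 (limma without the filter, adjusted p = 0.868). The mean over both probe sets gave 0.33 for the gene (limma adjusted p = 0.442).

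Cavin2, which binds phosphatidylserine and helps to bend and extend the caveolar membrane, was measured by 2 probe sets, and in both the groups were separated. Their log2 changes exceeded that of Cav1 with all 4 clones, but the order was not stable: with the larger pseudocount both 1416779_at and Cav1 gave 0.85, and without Prox1-labelled clone 2 1416778_at gave 0.98 against 1.06. The changes of Cav1 and 1416778_at did not separate as a pair. The brighter one (1416778_at) read 247 and 494 in the controls, against 741 and 933 under the Prox1 label. All 4 clones exceeded the background of their array, and the lower Prox1-labelled clone stood 1.50-fold above the higher control. Means were 371 ± 174 (SD, n = 2) and 837 ± 136, a 2.26-fold ratio with a log2 change of 1.14 ± 0.29 (95% interval 0.48 to 1.79, limma adjusted p = 0.166). The control clones themselves differed 2.0-fold.

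The other Cavin2 probe set (1416779_at) varied less within the groups. It read 112 and 136 in the controls, against 337 and 387 under the Prox1 label. The groups lay far apart compared with the distance within each: the ratio of the closest pair was 2.48, and clone 2 stood 1.21-fold above clone 1 among the controls and 1.15-fold among the Prox1-labelled clones. Its log2 change was 1.26 ± 0.21. Since it entered the tested set through the Prox1-labelled arrays alone, its p is no support for the difference, and without the filter its adjusted p was 0.367 in limma. The control readings of 112 and 136 lay above the highest Bacillus control of their arrays, which was 45.3 and 101.

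Both probe sets of Cavin2 were thus higher in each Prox1-labelled clone than in either control, and the calls varied with the clones used. Without control clone 2 the log2 changes were 1.58 (adjusted p = 0.00280) for 1416778_at and 1.36 (adjusted p = 0.00770) for 1416779_at. Without control clone 1 they were 0.70 and 1.16 (adjusted p = 0.0472 for the second). These fits keep 1 control array and hold no spread between control clones. The values of 1416779_at in them carry the same limit of the filter.

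Cavin1, known earlier as Ptrf, is the cavin without which caveolae do not form. Its brightest probe set (1424130_a_at) read 900.1 and 1063 in the controls, against 1285 and 1299 under the Prox1 label, which were nearly equal. The groups were separated by a ratio of 1.21 between the closest clones. The log2 change was 0.38 ± 0.19 (95% interval from -0.041 to 0.81, limma adjusted p = 0.389), an interval that includes 0. The second probe set (1421431_at) read 89.1 and 234 in the controls, against 250.2 and 175 under the Prox1 label. These groups overlapped, the control clones differed 2.63-fold, and the log2 change of 0.39 ± 0.34 (adjusted p = 0.654) became -0.13 without control clone 1. The third (1453891_at) read between 3.99 and 15.5, below the highest Bacillus control on 4 of 4 arrays, so it gives no measure of Cavin1. The 2 probe sets above background gave nearly the same log2 change on this scale, but the match depended on the pseudocount. Without one 1424130_a_at gave 0.40 and 1421431_at 0.53, and with the larger one they gave 0.35 and 0.23. The change of 1421431_at was imprecise, and only 1424130_a_at separated the groups. The mean over all probe sets of the gene, including the one at background, gave 0.22 (limma adjusted p = 0.735).

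Cavin3, which was first described as a binding protein of protein kinase C delta, was measured by 1423771_at. It read 853 and 829 in the controls, against 1279 and 963 under the Prox1 label. The control clones were close to each other and both lay below both Prox1-labelled clones, by a ratio of 1.13 at the closest pair. Means were 841 ± 17.5 (SD, n = 2) and 1121 ± 223, and the log2 change was 0.38 ± 0.20 (95% interval from -0.081 to 0.84, limma adjusted p = 0.428). Prox1-labelled clone 1 carried most of this distance, and without it the change was 0.19.

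Plvap encodes the diaphragm protein of caveolae and fenestrae and is used as a marker of blood vessel endothelium. Its probe set (1418090_at) read 2516 and 3584 in the controls, against 3410 and 2921 under the Prox1 label. The transcript was bright in every clone, above at least 94.0% of probe sets of its array, and the Prox1-labelled clones lay between the 2 controls. Means were 3050 ± 755 (SD, n = 2) and 3165 ± 345, and the log2 change was 0.070 ± 0.21 (95% interval from -0.41 to 0.55, limma adjusted p = 0.916). It turned to -0.18 without control clone 1 and to -0.040 without Prox1-labelled clone 1. The interval leaves room for changes of either sign, so equal levels are not shown.

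**Figure D2:**
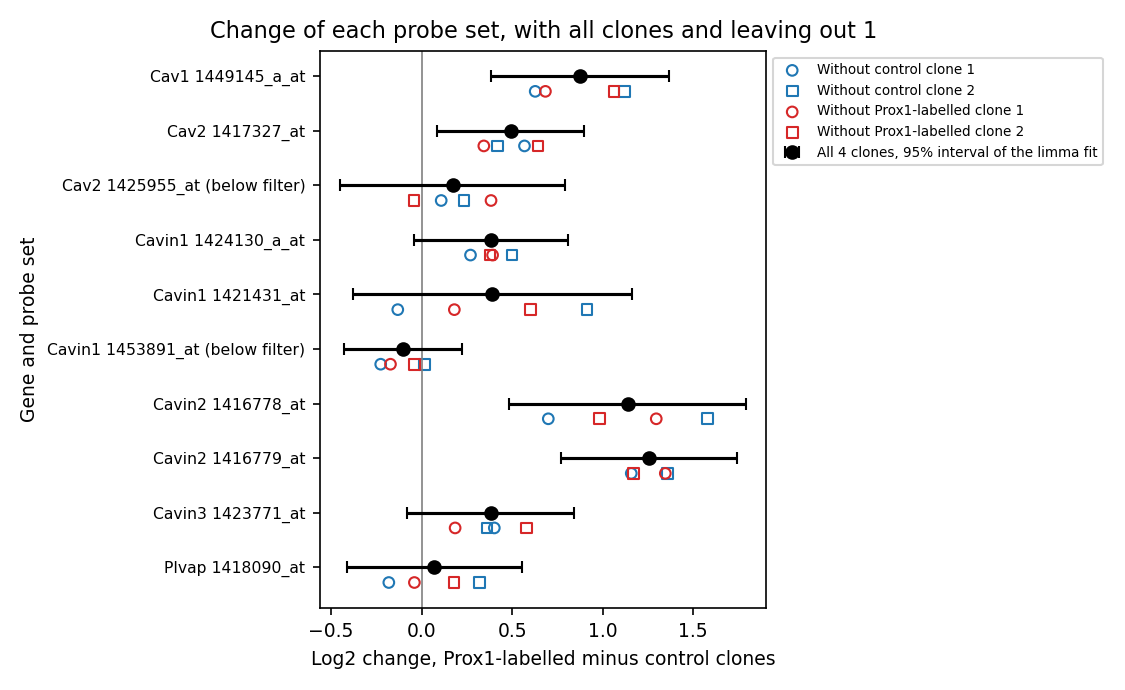
Log2 change of each of the 10 probe sets, Prox1-labelled minus control clones, with all 4 clones (filled points, 95% interval of the limma fit) and with 1 clone left out (open symbols). The Cavin2 and Cav1 points lie farthest to the right, from 0.87 to 1.26, and Plvap lies near 0 at 0.070.

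Within each group the members did not move alike. In the control clones, Cav1, Plvap and 1416778_at of Cavin2 were 1.41-, 1.42- and 2.0-fold higher in clone 2 than in clone 1, and Cavin1 (1424130_a_at) was 1.18-fold higher. Cav2 and Cavin3 were lower in control clone 2, at 0.901 and 0.971 of clone 1. In the Prox1-labelled clones, Cav1, Cav2, Cavin3 and Plvap were 1.30-, 1.23-, 1.33- and 1.17-fold higher in clone 1 than in clone 2. Cavin2 had the opposite order there, with clone 2 higher at both probe sets.

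Whether members differed from each other in their change was examined on the log2 difference of 2 members within each clone, for the brightest probe set of each gene. Of 15 pairs, 9 had differences that did not overlap between the groups. The pairs reuse the same 6 probe sets, so they are not independent. Separation in either direction was frequent: of 6956 tested genes, 1617 were separated upward and 1614 downward in their own values. The share among pairs of other genes was not computed. The widest gap was that of Cavin2 over Plvap, whose changes differed by 1.07, and the change of Cav1 exceeded that of Plvap by 0.80. For Cav1 and Plvap the difference was 0.52 and 0.51 in the controls, against 1.39 and 1.23 under the Prox1 label, so that Cav1 stood higher relative to Plvap in both Prox1-labelled clones. Cav1 and Cav2 differed by 0.38 in their change, and Cavin1 and Cavin3 by 0.0031. The 2-sided exact permutation p was at best 0.333, the smallest this design allows, and 0.556 after Benjamini-Hochberg adjustment over the 15 pairs, so no pair is shown to differ.

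**Figure D3:**
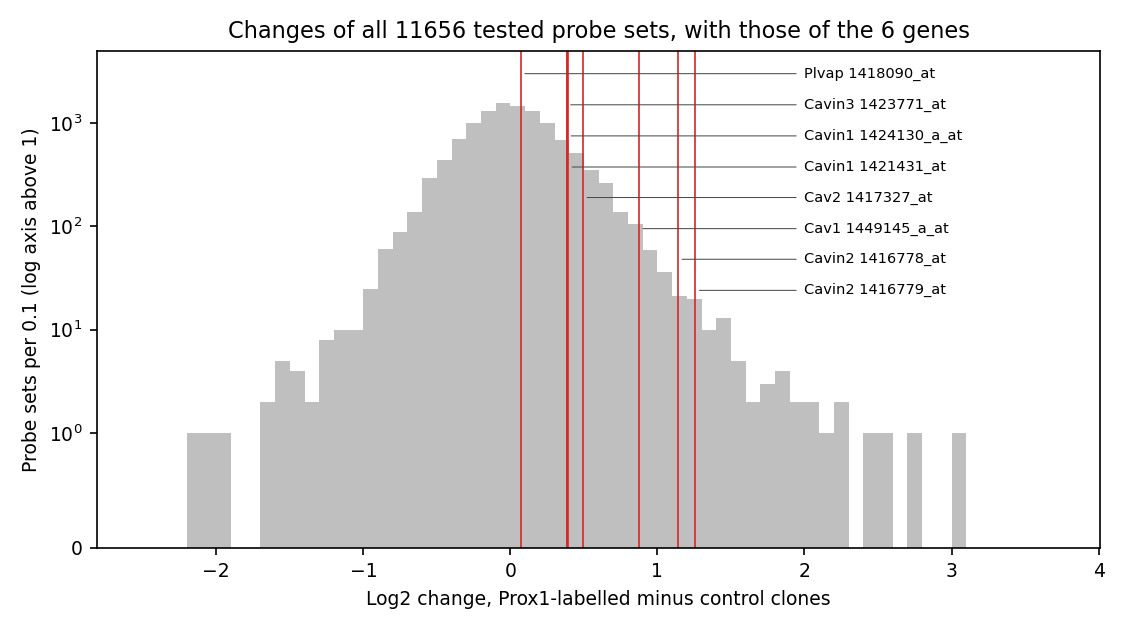
Histogram of the log2 changes of all 11656 tested probe sets (count on a log axis above 1), Prox1-labelled minus control clones, with red lines at the 8 tested probe sets of the 6 genes. Plvap lies in the bulk at 0.070, and 1416779_at of Cavin2 lies farthest to the right of the 8 at 1.26.

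For each gene the 3 transcripts with the most similar profile over the 4 arrays were taken from 6950 other tested genes, by the Euclidean distance between log2 values centred on their own mean. Closest to Cav1 were the choline transporter-like gene Slc44a1 (distance 0.13), the angiopoietin receptor gene Tek (0.13) and Sgo1 (0.15), a protector of centromeric cohesion. Tek read 377 and 579 in the controls, against 1005 and 857 under the Prox1 label, which is the same order of the clones as for Cav1. Closest to Cavin2 were the splicing factor gene Tra2a (0.15), Etl4 (0.15) and Tmem158 (0.17). A second tested probe set of Etl4 (1457147_at) read 229 and 156 in the controls, against 188 and 169 under the Prox1 label, with a log2 change of -0.068 and overlapping groups. Cav2 was closest to the cyclin-dependent kinase gene Cdk14 (0.047), the centriole gene Stil (0.063) and the endotoxin receptor gene Tlr4 (0.065). Cdk14 is unsettled too, since another of its probe sets (1419250_a_at) had a log2 change of -0.76.

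Cavin1 was closest to Trmt10b (0.025), Ints4 (0.026) and the basement membrane collagen gene Col4a5 (0.031). For Cavin3 the nearest were the transcription factor gene Gata2 (0.034), the ribonucleotide reductase gene Rrm1 (0.039) and Gfpt2 (0.044). For Plvap they were the selenocysteine elongation factor gene Eefsec (0.0096), the apoptosis regulator gene Cflar (0.020) and Cope (0.035). None of these 18 genes passed with all 4 clones. Without control clone 1 the log2 changes of Tek, Sgo1, Etl4 and Tmem158 were 0.64, 0.47, 0.65 and 0.57. Without control clone 2 they were 1.20, 1.15, 1.57 and 1.49. How common such near profiles are among the tested genes was not counted, and likeness here is a description of these 4 arrays.

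The muscle relatives of the family were dim. Cav3, the caveolin of striated muscle, read 17.5 and 14.5 in the controls, against 12.2 and 12.0 under the Prox1 label, and Cavin4, the muscle cavin, between 28.4 and 85.3. Cav3 was below the highest Bacillus control of each array. These 2 genes, with Ehd2, Nos3, Pecam1 and Cdh5 below, were chosen after their values were seen.

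Other proteins that shape caveolae gave a mixed picture. Of 16 listed accessory genes, among them EH-domain ATPases, pacsins, dynamins and filamin, 14 were on the array and 8 were tested. Of these 8, 5 had a positive and 3 a negative change, with a median of 0.093, and 0 passed. Over all 6956 tested genes 3539 were positive, with a median of 0.0074, and 7 passed higher and 1 lower. Ehd2, the ATPase that sits at the caveolar neck, read 587 and 1251 in the controls, against 1372 and 1511 under the Prox1 label (log2 change 0.71, limma adjusted p = 0.330). It stood above both controls in each Prox1-labelled clone, though the distance rested on control clone 1. Without that clone Ehd2 gave 0.20, and without control clone 2 it gave 1.23. Its second tested probe set (1424158_at) read 226 and 228 against 431 and 353 and was separated too.

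Among the 3 accessory genes with a negative change were Ehd1 and Bin1. Ehd1, an endocytic recycling ATPase, read 1350 and 1454 in the controls, against 795 and 844 under the Prox1 label (log2 change -0.74, limma adjusted p = 0.165). Without control clone 1 Ehd1 gave -0.79, and without control clone 2 -0.69. Its other tested probe sets, 1416010_a_at and 1448175_at, were at -0.37 and -0.31. Bin1, a membrane-curving BAR protein gene, read 1033 and 925 against 608 and 601 (log2 change -0.65, limma adjusted p = 0.191). Without control clone 1 Bin1 gave -0.58, and without control clone 2 -0.73. Both genes were separated downward, and neither passed with all 4 clones. Ehd4, another EH-domain ATPase gene, gave -0.10 with overlapping groups.

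Partners that bind caveolin in signalling showed no common direction. Of 18 listed genes 14 were tested, 7 positive and 7 negative, with a median of -0.021, and 0 passed. Nos3, the endothelial nitric oxide synthase held in check by caveolin-1, read 3455 and 4711 in the controls, against 3859 and 3771 under the Prox1 label, which lay between the controls (log2 change -0.080, limma adjusted p = 0.896, and 0.14 without control clone 2). The kinase gene Yes1 gave 0.54 (adjusted p = 0.271) and the TGF-beta receptor gene Tgfbr1 gave 0.55 (adjusted p = 0.288), both separated upward. The second tested probe set of Yes1 (1418470_at) gave 0.045 and overlapped.

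Other membrane systems were set beside the caveolae. Flotillins and other raft scaffolds, which mark membrane rafts without caveolin, had 2 positive and 4 negative changes among 6 tested genes, with a median of -0.19, and 0 passed. Flot2 read 789 and 1137 in the controls, against 545 and 585 under the Prox1 label (log2 change -0.70, limma adjusted p = 0.220, and 0.0492 without control clone 1). Its other probe set (1417544_a_at) gave -0.037 and overlapped, so the direction of Flot2 is not settled. The raft protein gene Erlin1 gave -0.29 (adjusted p = 0.501).

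Clathrin coat and adaptor genes had changes of either sign. Of 13 tested, 7 were positive and 6 negative, with a median of 0.034, and 0 passed. Eps15, an endocytic adaptor gene, read 710.0 and 794 in the controls, against 1582 and 1180 under the Prox1 label. Its log2 change was 0.83 (limma adjusted p = 0.166), and its other probe set gave 0.63. Without control clone 1 the brighter probe set of Eps15 gave 0.75, and without control clone 2 0.90. Cltb, a clathrin light chain gene, read 1043 and 1046 against 669 and 620 (log2 change -0.66, limma adjusted p = 0.188), and its other probe set gave -0.58.

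Genes of endothelial transport and lipid uptake had 3 positive and 4 negative changes among 7 tested, with a median of -0.12, and 0 passed. Acvrl1, a receptor of the BMP family with a part in endothelial LDL uptake, gave 0.54 (limma adjusted p = 0.417). It read 562 and 1096 in the controls, against 1189 and 1143 under the Prox1 label, so the distance rested on control clone 1. The fatty acid binding protein gene Fabp5 gave -0.45 (adjusted p = 0.497). Side by side, 5 of the 6 caveolin, cavin and Plvap genes were separated upward and 0 downward. The accessory genes had 1 upward and 2 downward of 8, the signalling partners 5 and 2 of 14, and the raft scaffolds 2 and 2 of 6. The clathrin genes had 1 upward and 4 downward of 13 and the transport genes 1 and 1 of 7. Over all 6956 tested genes 1617 were separated upward and 1614 downward. The lists were chosen with earlier results of these data known, and their counts are given as a description.

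**Figure D4:**
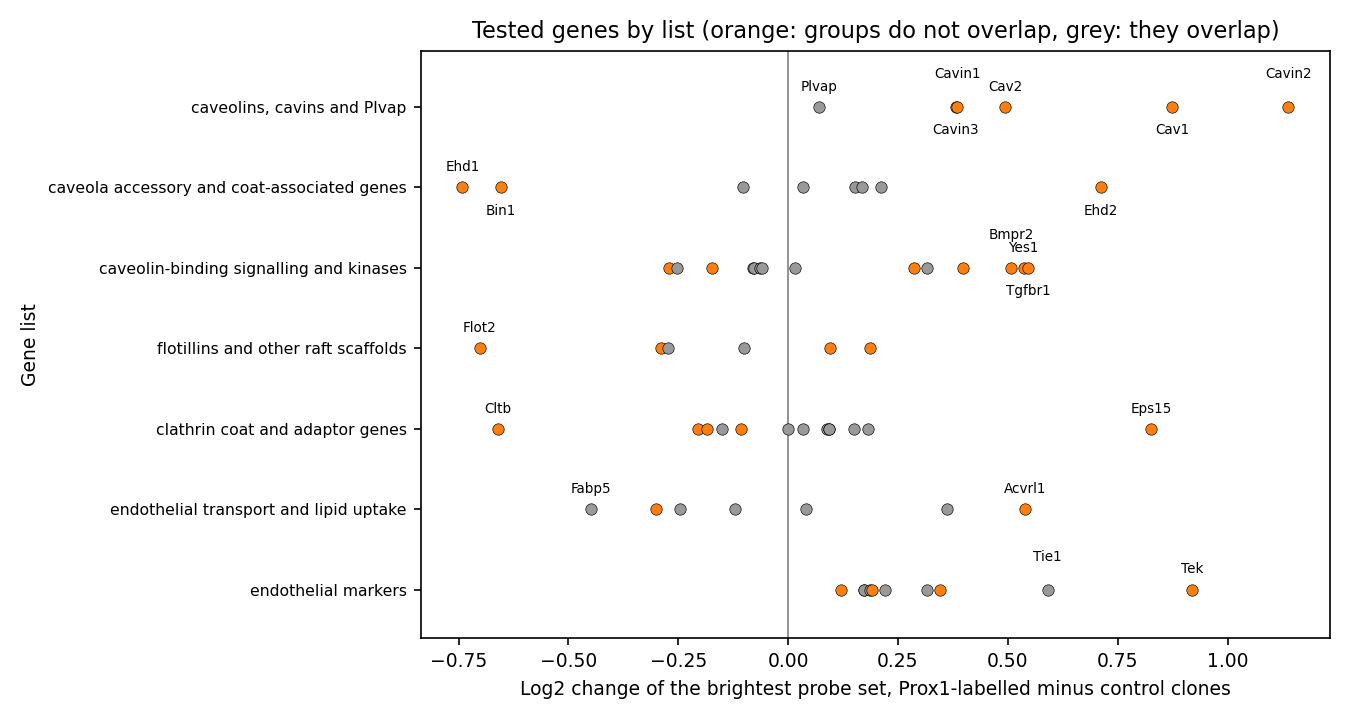
Log2 change of the brightest probe set of each tested gene, Prox1-labelled minus control clones, by gene list, with orange points where the groups do not overlap and names for changes of at least 0.4 and for the 6 genes. Cav1, Cav2 and the 3 cavins are orange and positive, and the clathrin list spreads from -0.66 to 0.83 around 0.

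All 10 tested endothelial markers were higher on average under the Prox1 label, with a median log2 change of 0.21. Of these 4 were separated upward and 0 downward, and 0 passed the threshold. Over all 6956 tested genes 3539 were positive, and 1617 were separated upward and 1614 downward. The summed intensity of the 12 listed endothelial markers was 36153 to 46602 in the control clones and 47357 to 49996 in the Prox1-labelled clones. It was lowest in control clone 1, where the brightest probe sets of Cav1, Cavin2, Cavin1 and Plvap were also lowest. Those of Cav2 and Cavin3 were lowest in control clone 2 instead. Pecam1, the endothelial adhesion molecule, read 5679 and 5418 against 6242 and 5826 (log2 change 0.12), and the endothelial cadherin gene Cdh5 gave 0.17, with -0.29 without control clone 1 and 0.63 (adjusted p = 0.0387) without control clone 2. Tek gave the highest change of the tested markers (0.92, limma adjusted p = 0.166), followed by Tie1 (0.59, adjusted p = 0.388). Without control clone 1 Tek and Tie1 gave 0.64 and 0.16, and without control clone 2 they gave 1.20 and 1.02. The part of the endothelial level in the caveolar values was not tested, and in bulk RNA fewer cells carrying a transcript and less of it per cell cannot be told apart.

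Markers of other cell types rich in caveolae were mostly at background. Of 12 smooth muscle and fibroblast markers 3 exceeded the highest Bacillus control on every array and 6 on none, among them Pdgfrb and Dcn, and the sum was 922 to 1219 in the control clones and 874 to 878 in the Prox1-labelled clones. Acta2 and Des, the tested ones with the smallest p, gave -0.31 and -0.21. Of 5 adipocyte markers on the array 2 exceeded background on every array, with sums of 360 to 448 and 545 to 746, while Adipoq and Lep did so on 0. Pparg, which endothelium also carries, gave 0.97 (limma adjusted p = 0.220), and Retn gave 0.047. Without control clone 1 the Pparg change was 0.59, and without control clone 2 it was 1.35.

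Of 8 striated muscle markers 1 exceeded background on every array, Tnnt2 (log2 change 0.67, limma adjusted p = 0.418), with sums of 454 to 758 and 675 to 788. The Tnnt2 change was 0.067 without control clone 1 and 1.26 without control clone 2. A second tested probe set of Tnnt2 (1424967_x_at) read 146 and 284 in the controls, against 373 and 184 under the Prox1 label, with a log2 change of 0.30 and overlapping groups. Epithelial markers had 1 of 7 above background on every array, with sums of 369 to 492 and 403 to 469, and 0 were tested. Leukocyte markers had 3 of 6, with sums of 1223 to 1652 and 1284 to 1406, while Ptprc, the pan-leukocyte marker, was at background on 4 of 4 arrays. Cd68 and Csf1r gave -0.25 and 0.098. A second tested probe set of Csf1r (1423593_a_at) gave -0.084 with overlapping groups. A dimmer one that was not tested (1419873_s_at) gave -0.91 and was separated downward, so the direction of Csf1r is not settled.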

How the data were processed

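The authors deposited 1 linear intensity for each probe set and array, and MAS5, which condenses probes into 1 signal, is named per the submitters' processing notes, without a version. Their trimmed mean was 500 on each array (2% off either end), and nothing further was normalized here. The 64 Affymetrix controls were left out, and 20380 probe sets carried 1 gene symbol, 691 several and 1555 none.

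Values were taken as log2(intensity + 47). Probe sets above the array's median on at least 2 of 4 arrays were tested (11656) with limma 3.58.1 in R 4.3.3 (lmFit, eBayes with trend, 2-sided, Benjamini-Hochberg over all tested, threshold 0.05). Errors are standard errors of the fit for log2 changes and SDs for intensities. Dimmer members were read from the same fit without the filter. The brightest probe set stood for a gene. The fit was tested on simulated data with independent noise of equal spread in both groups. The control clones here differed more from each other than the Prox1-labelled clones did, which that simulation does not cover. Only 4 arrays limit the precision.

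Named were all probe sets of the 6 genes, the 3 nearest profiles of each, and from each list all past the threshold or else the 2 with the smallest p. Members and lists were chosen with earlier results of these data known. Alternatives were another normalization, pseudocount, variance model or filter, a block for clone numbers, the mean over probe sets, and leaving out each clone. The labels do not state that clone numbers pair samples. Over probe sets, deviations of control clone 1 and Prox1-labelled clone 1 correlated at -0.0091, and an effect shared by part of the probe sets was not tested.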

Additional observations from a re-analysis of the deposited data

How the results depend on the processing

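Over 13 alternatives the 10 family probe sets gave 128 values, of which 117 kept both their direction and their side of the threshold, 6 newly passed it and 5 changed sign. The other filters, the variance models and the block leave the log2 change as it is, so direction could not change there. Every change of sign came on leaving out a clone. The count of 12 called probe sets became 4 under quantile normalization, 0 without the filter (2299 at an unadjusted p under 0.05), 7 with the robust variance model and 110 with the clone number as replicate block, and ran from 42 to 1150 on leaving out a clone. With that block both probe sets of Cavin2 passed, and no other family probe set did. There 1416778_at gave 1.14 (limma adjusted p = 0.0278) and 1416779_at gave 1.26 (limma adjusted p = 0.0186). The block pairs clones by their number, a pairing that the labels do not state, so these passes are no support for a difference. 1416779_at entered these tests through the Prox1-labelled arrays alone.

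Leaving out a clone gave log2 changes from 0.63 to 1.12 for Cav1, 0.70 to 1.58 for 1416778_at and 1.16 to 1.36 for 1416779_at of Cavin2, -0.13 to 0.91 for 1421431_at of Cavin1 and -0.18 to 0.32 for Plvap. The dim probe sets 1425955_at of Cav2 and 1453891_at of Cavin1 ran from -0.042 to 0.38 and from -0.23 to 0.016. The causes were not tested, except that a group left with 1 array holds no spread of its own.

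Among 42 other named genes signs changed for 10 on leaving out a clone, at Cope (-0.16 to 0.34), Eefsec (-0.18 to 0.33), Cflar (-0.17 to 0.33), Csf1r (-0.29 to 0.48), Cdh5 (-0.29 to 0.63), Des (-0.47 to 0.061), Acta2 (-0.65 to 0.020), Nos3 (-0.30 to 0.14), Retn (-0.061 to 0.15) and Cavin4 (-0.057 to 0.57). Dim signals near the Bacillus controls limit what 1416779_at, 1425955_at and 1453891_at can show.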
